A study of Caenorhabditis elegans with 2 samples.

Results

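The hedgehog-related and patched-related genes of *C. elegans* were examined in whole nematodes at Day 10 of adulthood with and without the abalone peptide AbaPep#07. Members were taken by name, as genes whose symbol is *grd*, *grl*, *wrt*, *hog*, *qua*, *ptr* or *ptc* followed by a number. This rule found 82 of the 18510 genes in the table, of which 57 are hedgehog-related (16 ground, 29 ground-like, 10 warthog, 1 hog and 1 quahog gene) and 25 are patched-related (23 *ptr* and 2 *ptc* genes). The data hold 1 library of untreated wild-type N2 nematodes (Control, 0 mM) and 1 library of wild-type N2 nematodes given 2 mM AbaPep#07, an octapeptide derived from abalone hemocyanin, from L4, the last larval stage. The nematodes lived in liquid S medium, were fed *E. coli* NA22 and were collected at Day 10. Whether these cultures held FUDR, an inhibitor of DNA synthesis used to prevent progeny, is not given in the sources used here.

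In flies and vertebrates, Hedgehog is a secreted signal that releases its own N-terminal part by autoprocessing, and Patched is the sterol-sensing membrane protein that binds it. *C. elegans* has no true Hedgehog and no Smoothened, but it has large families of secreted proteins with Warthog, Ground or Ground-like domains, some of which keep the autoprocessing Hint (Hog) domain, together with many Patched-like proteins. Most of the members studied so far act in the epidermis or other outer epithelia, where they serve moulting, the apical extracellular matrix and the traffic of lipids and membrane.

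The libraries were of nearly equal depth, with 19409907 estimated reads in Control and 19241145 with AbaPep#07. Levels are given as FPKM (fragments corrected for the length of the transcript and the size of the library) and ratios as AbaPep#07 over Control. The 14119 genes that reached 20 reads, summed over both libraries, had a median log2 FPKM ratio of -0.03. Each condition is a single library, so no difference below can be set against the spread between cultures. The 95% intervals are exact intervals for the ratio of the reads scaled to library totals, and they cover counting error only. They are not adjusted for the number of genes. In whole nematodes, fewer cells of a type and less RNA per cell cannot be told apart.

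Secreted hedgehog-related genes were expressed at low levels and the patched-related genes at higher ones. The median hedgehog-related gene had 1.09 FPKM in Control and 0.79 with AbaPep#07, a Control level that 71.6% of all genes exceeded, and 25 of the 57 were under 1 FPKM in both libraries. The median patched-related gene had 4.10 and 4.65 FPKM, and all 25 had at least 39 reads in both libraries together. Of the 57 hedgehog-related genes 34 reached 20 reads over both libraries, and the other 23 had between 3 and 19. The plot of FPKM in one library against the other shows both groups.

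**Figure D1:**
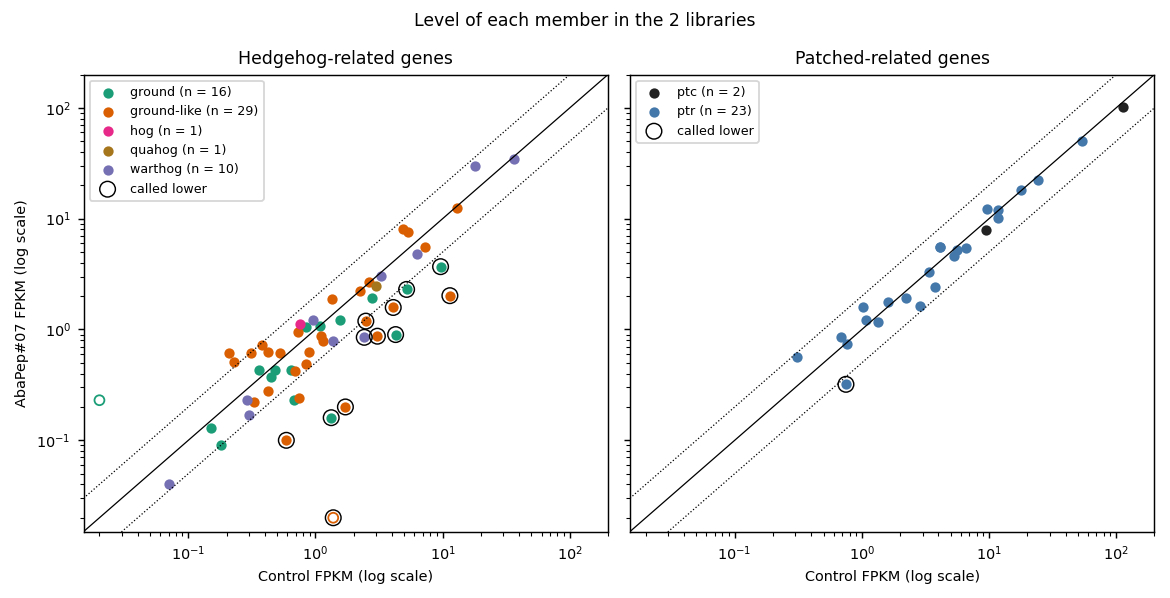
Level of each member in FPKM with AbaPep#07 (vertical, log scale) against Control (horizontal, log scale), 1 library per condition, with hedgehog-related genes on the left and patched-related genes on the right, coloured by family. The solid line marks equal levels and the dotted lines 2-fold, black rings mark the 13 members called lower, and the 2 open points are genes listed at 0 in 1 library, drawn at the edge. The 12 ringed hedgehog-related genes lie between 0.59 and 11.4 FPKM in Control, while *ptc-1*, at 113 and 102 FPKM, lies close to the line of equal levels.

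Calls of a lower level with AbaPep#07 fell mainly among the secreted proteins. A gene was called when a test of its read counts passed an FDR of 0.05 and its FPKM ratio was at least 2 or at most 0.5. The test is that of Audic and Claverie, used by the study, which asks whether both libraries could have drawn a gene's reads from 1 shared level. It therefore compares the 2 libraries and not the conditions. Of the 82 members, 13 were called lower (15.9%), against 1.43% of all genes, and 0 were called higher, against 2.1% of all genes. They were 12 of the 57 hedgehog-related genes (21.1%) and 1 of the 25 patched-related genes. By family they were 4 ground, 7 ground-like and 1 warthog gene, and *ptr-16*. A gene with 0 reads in the other library needed at least 7 to pass, and 76 of the members had 7 or more over both libraries.

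By fold alone, 10 of the 34 hedgehog-related genes with at least 20 reads were at least 2-fold lower, against 2.34% of all 14119 such genes, and 0 were at least 2-fold higher, against 3.27%. Their median log2 ratio was -0.35, beside -0.03 over all genes, and 25 of the 34 had a ratio below 1, where 54.8% of all genes did. With 1 FPKM added to both values the median was -0.20 and 5 genes were at least 2-fold lower, and among the 9 genes with at least 100 reads the median was -0.08 and 1 gene, *grl-16*, was at least 2-fold lower. Low counts alone put many genes past 2-fold, so the share was also taken within classes of depth. Among genes with 20 to 99 reads, 9 of 25 hedgehog-related genes (36%) were at least 2-fold lower and 0 were 2-fold higher, against 7.41% and 8.57% of 3117 genes. Below 20 reads, 5 of 23 (21.7%) were at least 2-fold lower and 3 (13.04%) at least 2-fold higher, against 25.4% and 29.5% of all genes. In that class the median log2 ratio was -0.34, beside 0 over all genes, and 2 genes (8.70%) were called lower, against 0.78%.

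**Figure D2:**
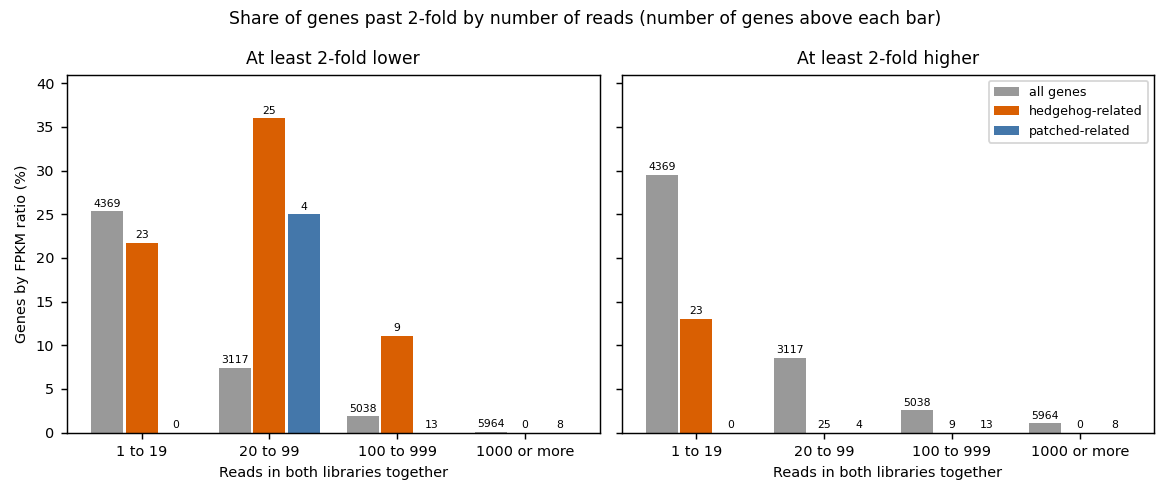
Share of genes (vertical, %) whose FPKM was at least 2-fold lower (left) or higher (right) with AbaPep#07, by the number of reads in both libraries together (horizontal), for all genes, hedgehog-related and patched-related genes. The number above each bar is the number of genes in the class. The tallest bar for hedgehog-related genes, 36% of 25 genes, is that of 20 to 99 reads on the left.

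Expression summed over the 57 hedgehog-related genes was 2523 reads in Control and 2156 with AbaPep#07, a ratio of 0.862 (counting interval 0.814 to 0.914). The called gene with the most reads was *grl-16*. Without *grl-16* the ratio was 0.947 with an interval of 0.892 to 1.01, which holds 1. The median of the genes was little altered by leaving it out (-0.33). Without the 12 called genes, the other 45 had 1856 and 1979 reads, a ratio of 1.08 (1.01 to 1.15). The 24 of them with at least 20 reads had a median log2 ratio of -0.06. The genes left out were chosen by these same values.

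Of the ground-like genes, a family of secreted proteins named for the Ground-like domain, 7 of 29 were called lower. The clearest single change of all members was that of *grl-16* (chromosome I, 572173 to 575120, minus strand), with 278 reads in Control and 49 with AbaPep#07, or 11.4 and 2.02 FPKM. This is a 5.65-fold lower level, with a counting interval of 4.14-fold to 7.78-fold and an FDR of 5.41e-38 by the read test. In Control only *wrt-5*, *wrt-10* and *grl-21* had a higher FPKM among the hedgehog-related genes.

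Fewer reads stood behind the other 6. The gene *grl-7* (chromosome V, 11344828 to 11347012), whose product is a protein of the apical extracellular matrix, had 67 and 26 reads and was 2.59-fold lower by FPKM (1.60 to 4.19 by reads). The gene *grl-1* had 44 and 21 reads and *grl-5* had 35 and 10, or 2.09-fold and 3.53-fold lower. Larger ratios came with smaller counts. For *grl-25* (chromosome III, 8962293 to 8965707) 25 and 4 reads were counted and for *grl-23* (chromosome V, 12575191 to 12576897) 20 and 2, and their FPKM was 5.90-fold and 8.60-fold lower, with intervals of 2.14 to 24.5 and 2.41 to 87.5. The gene *grl-19* had 7 reads in Control and 0 with AbaPep#07. Its counting interval reaches up to a read ratio of 0.70, or 1.43-fold lower, and its FDR of 0.0342 by the read test was the highest of the 13 calls.

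Several ground-like genes of similar or higher depth were not called. Among them *grl-4*, with 115 and 89 reads, had a read ratio of 0.781 with an interval of 0.585 to 1.04 that holds 1. The gene *grl-21* (chromosome IV, 10737474 to 10738191), a Hedgehog-like signal that acts in the control of mitochondria and lipid stores, had 95 and 94 reads (12.9 and 12.5 FPKM) and a read ratio of 0.998 with an interval of 0.742 to 1.34. At the upper end, *grl-22* had 29 and 49 reads, a log2 FPKM ratio of 0.72 with an interval of the read ratio from 1.06 to 2.80, but it did not pass the FDR threshold. The gene *grl-14* had 118 and 168 reads and passed the FDR threshold without reaching 2-fold, at a log2 ratio of 0.50. The ratio of *grl-24*, whose log2 value was 0.58, rests on 10.97 and 16.2 estimated reads that RSEM divided with the overlapping gene F11E6.9. The adjacent genes *grl-8* and *grl-9* also carried fractions of reads, and together they had 10.3 and 43.7 reads in Control and 8.24 and 60.8 with AbaPep#07.

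**Figure D3:**
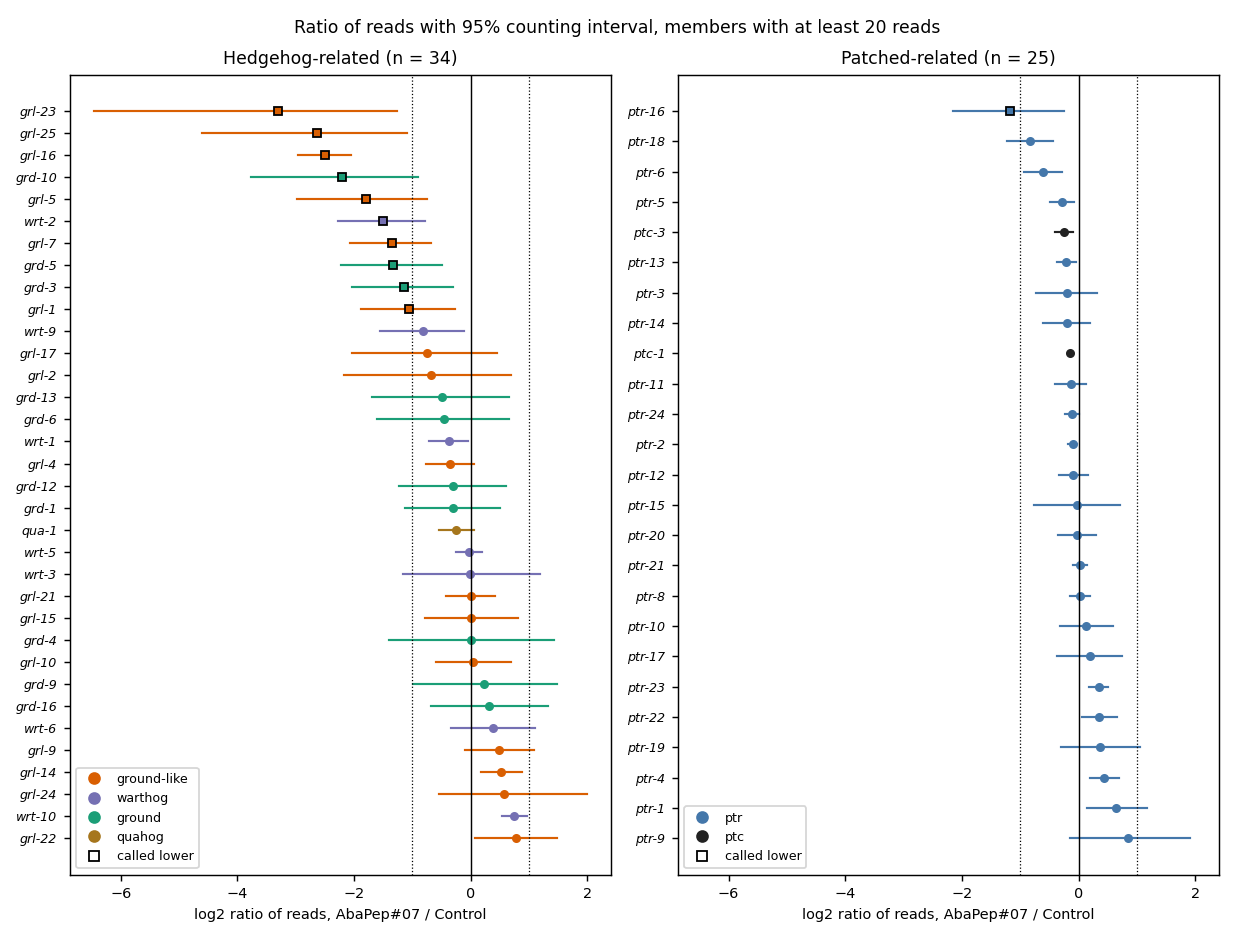
Ratio of reads with AbaPep#07 to Control, scaled to library totals (horizontal, log2), for the 34 hedgehog-related (left) and 25 patched-related (right) genes that reached 20 reads over both libraries. Points are ratios, lines are exact 95% counting intervals, squares are genes called lower and dotted lines mark 2-fold. At the top, *grl-23*, *grl-25*, *grl-16* and *grd-10* lie below -2, while the most abundant patched-related gene *ptc-1* has an interval so narrow, 0.883 to 0.933 as a ratio, that its line is hidden by the point.

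Ground genes, a smaller family of secreted proteins, were also lower in sum. Their summed reads were 292 in Control and 185 with AbaPep#07, a ratio of 0.639 (0.529 to 0.771), and 4 of 16 were called lower. Highest in level was *grd-5* (chromosome V, 8619032 to 8619870), with 43 and 17 reads and 9.64 and 3.69 FPKM, a 2.61-fold lower level (1.40 to 4.69 by reads). The gene *grd-10* (chromosome IV, 3441055 to 3441841), whose promoter is commonly used to mark the seam cells of the epidermis, had 28 and 6 reads and was 4.74-fold lower (1.88 to 13.7). The gene *grd-3* had 40 and 18 reads and *grd-14* had 17 and 2, or 2.27-fold and 8.31-fold lower, the last on 19 reads in all. The gene *grd-8* had 0 reads in Control and 4 with AbaPep#07, which by its counting interval does not tell a higher from a lower level (read ratio of 0.666 or more).

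Neighbouring ground genes were not always called together. The genes *grd-13*, *grd-3* and *grd-10* lie within 1 cluster on chromosome IV (3438312 to 3441841, all on the plus strand) and all had fewer reads with AbaPep#07. Their log2 FPKM ratios were -0.54, -1.18 and -2.25. The gene *grd-13*, with 17 and 12 reads, was not called, and the interval of its read ratio of 0.712 (0.310 to 1.58) holds 1. Reads of the 3 genes together went from 85 to 36, a ratio of 0.427 (0.281 to 0.638). This sum includes the called *grd-3* and *grd-10*, so it says nothing further of *grd-13*. By contrast *grd-14* and *grd-4*, 184 bp apart on the X chromosome, had 17 and 2 reads and 10 and 10 reads.

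Among warthog genes the most abundant members, *wrt-5* and *wrt-10*, were not lower. The gene *wrt-5* (chromosome IV, 4050006 to 4051639), needed for embryonic morphogenesis, had the highest FPKM of all hedgehog-related genes in both libraries, 36.3 and 34.4, from 327 and 318 reads. The second, *wrt-10* (chromosome II, 7533262 to 7534563), had 289 and 482 reads and 17.9 and 29.7 FPKM. Its log2 FPKM ratio was 0.73, with a read ratio of 1.68 (1.45 to 1.95). It passed the FDR threshold and stayed short of 2-fold. Its tail-to-tail neighbour *wrt-1*, 15 bp away, had 177 and 135 reads and a log2 ratio of -0.39. The read ratio of *wrt-1* was 0.769 with an interval below 1 (0.610 to 0.968), but it did not pass the FDR threshold. Together *wrt-5* and *wrt-10* made up 31.4% of the summed hedgehog-related FPKM in Control and 43.1% with AbaPep#07.

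The only warthog gene called lower was *wrt-2* (chromosome X, 3092395 to 3094349), an epidermal gene, with 63 and 22 reads and 2.42 and 0.85 FPKM, a 2.85-fold lower level (1.72 to 4.85 by reads). The summed warthog reads were 970 and 1052, a ratio of 1.09 (1.002 to 1.195). Without *wrt-10*, left out with its higher value in view while *wrt-2* was kept, they were 681 and 570, a ratio of 0.844 (0.754 to 0.945). The quahog gene *qua-1* (chromosome II, 8198803 to 8204004), required for moulting, had 205 and 171 reads, 2.97 and 2.49 FPKM, and a read ratio of 0.841 whose interval of 0.683 to 1.04 holds 1. The single hog gene *hog-1* had only 8 and 9 reads. Its log2 ratio was 0.59 by FPKM and 0.18 by reads, the widest gap between these measures among the members.

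**Figure D4:**
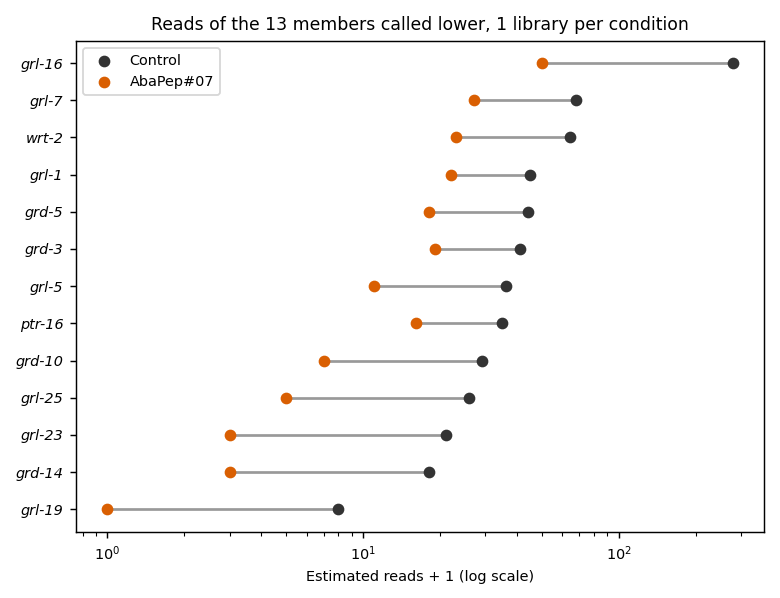
Estimated reads plus 1 (horizontal, log scale) in the Control and the AbaPep#07 library for each of the 13 members called lower, with a line joining the values of a gene. Every AbaPep#07 point lies left of its Control point, from *grl-16* with 278 and 49 reads to *grl-19* with 7 and 0.

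None of the 12 called hedgehog-related genes has an annotated Hint domain, and in other annotated features they varied. In the table's InterPro annotation, a Ground-like domain without a Hint domain is given for 37 of the 57 genes, of which 8 were called, and a Hint domain for 10 genes, of which 0 were called. The other 10 carry neither entry, and 4 of them were called (*grl-23*, *grl-25*, *grd-14* and *wrt-2*). Of the 10 Hint genes only 4 had at least 20 reads, with a median log2 ratio of -0.27, so a difference from the other genes was not detectable at this depth. The median coding length was 852 bp for the called genes and 846 bp for the other 45. Chromosome V holds 26 of the 57 genes and 5 of the 12 called, chromosome IV 12 and 3, and the X chromosome 10 and 2. For 3 of the called genes an exon overlaps a coding gene on the opposite strand, and the strand setting of the counting is not given in the sources used here. These partners were *aass-1* at *grl-19* (902 and 1301 reads), *hir-1* at *grl-1* (660 and 543) and *pccb-1* at *wrt-2* (3888 and 4268), and 0 of them were called.

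Patched-related genes stood close to their Control levels. Their median log2 ratio was -0.10, 15 of 25 were below 1, and 1 was at least 2-fold lower and 0 higher. Their depth allowed much smaller differences to pass the read test alone, and by that measure 8 of 25 were lower and 3 higher. Of the 57 hedgehog-related genes 12 were lower and 2 higher by the same test. Over all 18510 genes the shares were 12.4% and 13.1%. These include 4369 genes with 1 to 19 reads, so the shares are not matched for depth. Summed over the patched-related genes, 20629 reads in Control and 19059 with AbaPep#07 gave a ratio of 0.932 (0.914 to 0.951).

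The *ptc* genes encode the closest relatives of Patched. The gene *ptc-1* (chromosome II, 7893222 to 7900515), which is required in the germ line for the division of its syncytium, held 51.4% of the patched-related reads in Control and 50.05% with AbaPep#07. It had 10605 and 9539 reads and 113 and 102 FPKM, a level that only 7.47% of all genes exceeded in Control. Its read ratio of 0.907 (0.883 to 0.933) is a small difference that exceeds counting error. The germline markers *pgl-1*, *glh-1*, *nos-2* and *mex-5* had log2 ratios of -0.35, -0.42, -0.04 and -0.26, and their part in the *ptc-1* value was not tested. The gene *ptc-3* (chromosome II, 2845412 to 2852593), an essential gene that acts in sterol transport, had 760 and 634 reads, 9.46 and 7.94 FPKM, and a ratio of 0.842 (0.756 to 0.936).

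Of the *ptr* genes, *ptr-16* alone was called. It had 34 and 15 reads and 0.75 and 0.32 FPKM, a 2.34-fold lower level (1.19 to 4.44 by reads) in a gene of very low expression. Most abundant was *ptr-2*, with 2724 and 2513 reads (53.7 and 49.8 FPKM), followed by *ptr-24*, with 1231 and 1124 (24.5 and 22.6 FPKM), and *ptr-21*, with 1080 and 1085 (17.97 and 18.15 FPKM). The product of *ptr-24* has been placed in 1 pathway with GRL-21. The read ratio of *ptr-24* was 0.921 (0.849 to 0.999), and it did not pass the FDR threshold. The ratio of *ptr-21* was 1.01 (0.931 to 1.10). The abundant *ptr-8* had 579 and 583 reads, a ratio of 1.02 (0.904 to 1.14), and *ptr-13* had 710 and 609. By the read test *ptr-2*, with a ratio of 0.931 (0.881 to 0.983), and *ptr-13*, with 0.865 (0.775 to 0.966), were lower, both short of 2-fold. The order of the 3 highest *ptr* genes by FPKM was the same in both libraries.

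Apart from *ptr-16*, the lowest ratios of the family were those of *ptr-18* and *ptr-6*, both named after their values were seen. For *ptr-18* 151 and 84 reads were counted, a 1.78-fold lower level (1.36 to 2.36 by reads), and for *ptr-6* 202 and 131, a 1.53-fold lower level (1.22 to 1.92). Both passed the FDR threshold and stayed short of 2-fold.

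A few *ptr* genes were higher with AbaPep#07 by less than 2-fold. The gene *ptr-23* (chromosome I, 14909240 to 14913083), which acts with the epidermal mucin-like protein OSM-8 in the response to osmotic stress, had 586 and 737 reads and a log2 ratio of 0.34 with a read ratio of 1.27 (1.14 to 1.42). The gene *ptr-1* had 54 and 84 reads and a log2 ratio of 0.64. The highest log2 ratio of the group, 0.85, was that of *ptr-9*, from only 14 and 25 reads, with an interval of 0.901 to 3.75 that holds 1. The gene *ptr-4*, which is required for moulting, had 225 and 303 reads and passed the FDR threshold at a log2 ratio of 0.44. The *ptr* genes not named here lay between log2 ratios of -0.29 and 0.44.

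Relatives of the pathway outside these families held no called gene, which for so short a list is close to the share over all genes. A list of 12 relatives covered the Gli homologue *tra-1*, the Dispatched-related *che-14* and *ptd-2*, the patched-related *daf-6* and other sterol-sensing, acyltransferase-like, lipoprotein receptor and protein kinase A genes. It had 0 genes called, against 1.43% of all genes called lower and 2.1% higher, and a median log2 ratio of -0.10. By the read test alone 2 of the 12 were higher, *scp-1* and *lrp-1*, and 1 was lower, *ncr-1*. Reads were 1813 and 1674 for *tra-1*, 45 and 37 for *che-14*, 33 and 26 for *ptd-2*, and 63 and 59 for *daf-6*, which shapes the sensory channel of glia. Of these 4 genes, *tra-1* had a read ratio of 0.931 (0.871 to 0.996) but did not pass the FDR threshold, and the intervals of the other 3 hold 1.

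Moulting genes were not lower as a list, although many ground-like and warthog genes are known to be expressed in each moult. The regulator *nhr-23*, a nuclear receptor that drives the larval moults, had 732 and 619 reads (19.2 and 16.2 FPKM), a log2 ratio of -0.25. Its read ratio was 0.853 (0.765 to 0.951), lower by the read test. For *nhr-25*, a nuclear receptor of the epidermis with a role in moulting, 137 and 241 reads were counted (3.09 and 5.47 FPKM), a log2 ratio of 0.82 with a read ratio of 1.77 (1.43 to 2.2). Of the 15 listed regulators 14 were measured, with a median log2 ratio of 0.36, and by the read test alone 6 were higher and 2 lower. The 2 lower ones were *nhr-23* and *grh-1* (604 and 434 reads). Of the 23 listed effectors 22 had at least 20 reads, with a median of 0.21, and 9 were higher and 4 lower by the read test. Over all genes 13.1% were higher and 12.4% lower by that test. The only effector called was *suro-1*, which is needed for collagen organisation, lower with 68 and 30 reads. The other effectors lower by the read test were *mlt-9* (181 and 127 reads), *nas-37* (588 and 492) and *dab-1* (4830 and 4428). Chosen after their values were seen, the matrix genes *noah-1*, *noah-2* and *fbn-1* had 1011 and 1578, 801 and 1229, and 473 and 867 reads. The molting cycle term of the table is carried by 25 members, 24 of them patched-related and the other *qua-1*, with a median log2 ratio of -0.11, and by 36 other genes, whose median was 0.07.

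**Figure D5:**
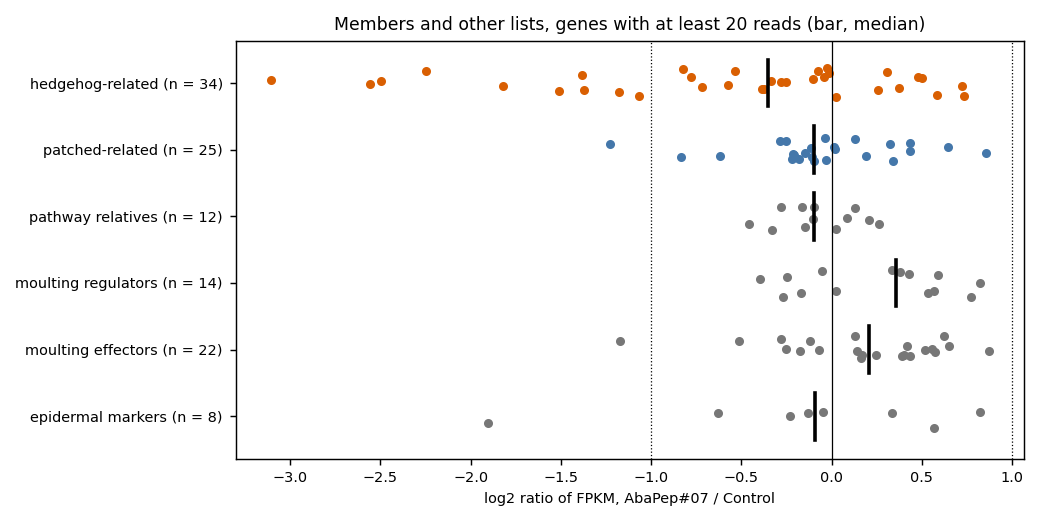
Log2 ratio of FPKM with AbaPep#07 to Control (horizontal) for genes with at least 20 reads in the members and in 4 other lists, each point 1 gene, each bar the median of its list and the dotted lines 2-fold. The medians are -0.35 for hedgehog-related and -0.10 for patched-related genes, -0.10 for the pathway relatives, 0.36 and 0.21 for moulting regulators and effectors, and -0.09 for epidermal markers. Some genes stand in more than 1 of the other lists.

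The cuticle collagens, which the same epidermis secretes, also held many lower genes. Of 154 numbered *col* genes 37 were called lower and 1 higher, against 1.43% and 2.1% of all genes. The 115 that reached 20 reads had a median log2 ratio of -0.50. Of these 115, 33.04% were at least 2-fold lower, against 2.34% of all such genes. The ratio of the summed reads of the 154 genes was nevertheless 1.19. Beside the same shares called over all genes, the 35 cuticlin genes had 3 called lower and 1 higher, and a median of -0.08. A test of the difference between these families and the hedgehog-related genes was not possible with 1 library per condition.

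Tissue markers showed which other changes ran beside these values. The epidermal list gave no single direction, with 3 of its 10 genes higher and 3 lower by the read test and a summed level of 676 FPKM in Control and 498 with AbaPep#07. The 3 lower ones were the collagen genes *col-10* (754 and 201 reads, called lower), *col-19* (5018 and 3267) and *sqt-3* (3387 and 2924). The 3 higher ones were the transcription factor genes *elt-1* (166 and 290), *elt-3* (256 and 327) and *nhr-25*. These higher genes are also among the listed moulting regulators, so the lists are not independent. The 4 seam and vulval markers had a summed level of 35.99 and 38.6 FPKM, with *nhr-73* at 0 reads in the AbaPep#07 library and 4.28 in Control. All 6 oocyte markers were lower by the read test, with a summed level of 2436 and 1960 FPKM, and the intestinal list had 1 gene called, *act-5*, higher with 2653 and 5757 reads. Sperm markers were at 22.8 and 16.1 FPKM in sum, with *spe-11* called lower on 14.1 and 3.07 reads. The pharyngeal list had a median log2 ratio of -0.33 and a ratio of summed reads of 0.812, with 3 of 4 genes lower and 1 higher by the read test. By the same test 3 of 5 muscle genes and 3 of 6 neuronal genes were lower and 0 higher, while 2 of 4 excretory genes were higher and 0 lower, with a ratio of summed reads of 1.26. The early embryo markers were close to 0, at 2.25 and 2.59 FPKM in sum over 6 genes, and *sdz-19* had 1 and 0 reads. The part of these shifts in the hedgehog-related values was not tested.

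How many calls hold depends on the variation between cultures, which was not measured. An exact test in edgeR that assumed a biological coefficient of variation of 0.2 called only *grl-16* among the members, and with 0.4 it called 0 of them. With 1 FPKM added to both values 7 of the 13 calls were left.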

How the data were processed

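RNA-seq was analysed from 1 Control and 1 AbaPep#07 library, grouped by the treatment label, on the BGISEQ-500 after selection of polyadenylated RNA. The authors mapped clean reads to coding genes with Bowtie2 2.2.5, quantified them by RSEM 1.2.12 and named the build WBcel235. Their deposited table holds estimated counts without normalization, as well as FPKM and TPM, which the authors rounded to 2 decimals. RSEM divides reads among similar genes, so 5 members have counts that are not whole. The deposited log2 ratio, p-value and FDR are the authors' own comparison and were not used. All columns of values per sample were mapped (0 unused).

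The read test of Audic and Claverie was computed on counts rounded down, with the observed count inside the lower tail only, and adjusted by Benjamini-Hochberg over 18510 genes. The ratio is that of FPKM, with 0.01 in place of 0. Quasi-likelihood and DESeq2 tests need replicates and could not be fitted. Intervals are exact (Clopper-Pearson) at 95%. PCR copies were not told apart. Scaling factors came from DESeq2 1.42.0 and edgeR 4.0.16 (R 4.3.3) on counts rounded to whole reads, and the rest from Python 3.11.15 with scipy 1.17.1. Positions are from RefSeq and gene structures from Ensembl, both on WBcel235, with all 82 members matched.

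The members and lists were chosen with earlier results of these data known. Members named in the text are those called, those of highest FPKM in each family, the 5 highest and 5 lowest ratios among members with at least 20 reads, those with at least 1000 reads over both libraries and those with 0 reads in 1 library, with *tra-1*, *che-14*, *ptd-2*, *daf-6*, *nhr-23*, *nhr-25* and called genes of the other lists. Any other gene named was picked with its values in view. Of the marker lists, those of seam cells, intestine, muscle, pharynx, neurons, glia, the excretory system, germ line, oocytes and early embryo had 0 genes called lower, and of these only *act-5* of the intestine was called higher.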

Additional observations from a re-analysis of the deposited data

How the results depend on the processing

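The count of 13 members called lower was also 13, with the same genes, when the ratio was taken from TPM, from reads scaled by library totals, by TMM or by DESeq2 size factors, or with both tails including the observed count, and 11 with a minimum of 20 reads. It was 7 with 1 FPKM added to both values (136 of all genes in place of 265), 1 with Bonferroni adjustment (96 of all genes), and 1 and 0 with edgeR's exact test at an assumed coefficient of variation of 0.2 and 0.4 (40 and 1 of all genes). The single gene left was *grl-16*. The 7 left with 1 FPKM added were *grd-10*, *grd-14*, *grd-5*, *grl-16*, *grl-19*, *grl-23* and *grl-5*. In every one of these settings 0 members were called higher. Of the hedgehog-related genes, 10 were at least 2-fold lower, 5 with 1 FPKM added and 1 of the 9 with at least 100 reads, and with no minimum of reads 15 were lower and 3 higher. The 1 patched-related gene past 2-fold became 0 with 1 FPKM added and 0 with at least 100 reads. The hedgehog-related median of -0.35 ranged from -0.34 to -0.08 and the patched-related median of -0.10 from -0.11 to -0.04, both below 0 throughout, and the median of -0.08 was that of genes with at least 100 reads. No paired analysis was possible because each condition has 1 library. Depth limits what can be said of the 23 hedgehog-related genes with fewer than 20 reads.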

Other observations

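The table's InterPro annotation gives a patched or sterol-sensing entry to 7 further genes that the naming rule leaves out, and 0 of them were called. Besides *che-14*, *ptd-2* and *daf-6*, they are *ncr-1* and *ncr-2*, homologues of the human cholesterol transporter NPC1, *scp-1*, the homologue of the sterol sensor SCAP, and F43D9.1. By far the most abundant was *scp-1*, at 128 FPKM in Control and 148 FPKM in the AbaPep#07 library (7896 and 9062 reads), a read ratio of 1.16 (1.12 to 1.19). Next was *ncr-1*, with 2938 and 2634 reads and a ratio of 0.904 (0.858 to 0.954). The median log2 ratio of the 7 genes was -0.15. Over all genes 1.43% were called lower and 2.1% higher. The entries were looked up with these values in view.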
